A study of Mus musculus with 10 samples.

Results

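Glucocorticoid signalling was examined through 10 genes in brown adipose tissue (BAT) of control and *Stat5* Adipoq mice. The genes were taken by name from their place in the pathway: the receptor genes Nr3c1 and Nr3c2, the steroid enzyme gene Hsd11b1, and the target genes Fkbp5, Tsc22d3, Sgk1, Zbtb16, Mt1, Mt2 and Errfi1. All 10 were among the 13568 genes that passed a filter on low counts, out of 24454 genes in the count files.

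The study asked what STAT5 does in thermogenic fat, and RNA from BAT of 5 control and 5 *Stat5* Adipoq mice was sequenced with 1 library per mouse. The mice were males on a C57BL/6N background, 2 months old, on a standard diet with free access to food and without further treatment. In *Stat5* Adipoq mice the floxed Stat5a and Stat5b genes were deleted by a Cre recombinase driven by the Adipoq promoter, which is active in adipocytes, so the other cells of BAT kept both genes. Controls carried the same floxed genes without Cre according to the methods, while the labels give them as wild type.

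Glucocorticoids enter cells and bind the glucocorticoid receptor, which is held ready by heat shock protein chaperones and then moves to the nucleus, where it binds DNA and switches target genes on or off. In adipose tissue the hormone acts on lipolysis, lipid storage and adipocyte differentiation, and its level inside a cell depends on enzymes that activate or inactivate it as well as on the supply from blood. STAT5 and the glucocorticoid receptor are known to bind each other and to act together on some genes in liver and mammary gland.

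The deletion was checked first. Stat5a measured 109.8, 130.4, 92.6, 86.9 and 107 CPM (counts scaled to a common library size by the TMM method) in control replicates 1 to 5 and 20.7, 15.8, 16.2, 16.6 and 16.1 CPM in *Stat5* Adipoq replicates 1 to 5. Stat5b measured 82.0, 84.8, 83.7, 76.6 and 91.9 CPM in the controls and 21.0, 22.0, 21.4, 22.9 and 21.5 CPM in *Stat5* Adipoq BAT. Every *Stat5* Adipoq library lay below every control for both genes, and the mRNA that remained cannot be assigned to a cell type in whole tissue. The libraries held 10315218, 10936218, 8488129, 19514904 and 10710575 counts on genes in control replicates 1 to 5 and 11671635, 15686868, 10633496, 9401827 and 13010152 in *Stat5* Adipoq replicates 1 to 5. The 10 genes averaged between 83.6 counts per library, for Fkbp5, and 1745 counts, for Nr3c1.

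Control replicate 3 stood apart from the other libraries. All 9 listed markers of skeletal muscle were tested, and their summed level was 56.8, 15.6, 3634, 4.25 and 298 CPM in control replicates 1 to 5 and 41.6, 2.24, 5.72, 17.5 and 16.6 CPM in *Stat5* Adipoq replicates 1 to 5. Myh4, the most abundant of them, reached 1496 CPM in control replicate 3. The 6 listed liver genes summed to 88.9 CPM there, with Alb as the most abundant, and to between 1.32 and 6.22 CPM in the other libraries. Apart from the search for similar genes, results for the 10 genes that rest on this library are given with and without it. This choice was made after the data were seen. The tissue label was checked against 5 markers of brown adipocytes, whose summed level was 11187, 9983, 17767, 13788 and 7792 CPM in the controls and 10681, 10505, 14474, 15411 and 15246 CPM in *Stat5* Adipoq BAT, with Ucp1 as the most abundant. None of these 5 and none of the 5 markers of all adipocytes was at 0 in the count files, whereas the 4 red cell genes were at 0 in every library. Counts of 0 for all 4 do not show that blood was absent from the tissue, and their reason was not tested.

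The order of the 10 levels was read from CPM per kilobase of exon in control BAT. Exon lengths are those of the GENCODE basic annotation, while the methods name an Ensgene annotation and counts are for Entrez genes. The order therefore assumes that these lengths fit the exons counted. On this scale the level of Mt1 was 120.1 ± 15.5 (SD, n = 5), that of Mt2 80.0 ± 23.6 (SD, n = 5) and that of Hsd11b1 64.7 ± 3.51 (SD, n = 5). The receptor gene Nr3c1 followed with a level of 22.3 ± 1.62 CPM per kilobase (SD, n = 5), ahead of Sgk1 at 20.4 ± 6.91 (SD, n = 5) and Tsc22d3 at 12.7 ± 3.43 (SD, n = 5). The levels of Errfi1, Zbtb16, Nr3c2 and Fkbp5 were lower on average, at 10.6 ± 5.89, 9.60 ± 12.2, 2.56 ± 0.596 and 1.61 ± 1.58 CPM per kilobase (SD, n = 5 each). Only Hsd11b1 and Nr3c1 were neighbours in this order whose control libraries did not overlap. Within each of the 5 control libraries Mt1 was above Mt2, at 1.21 to 1.92 times its level, and Sgk1 above Tsc22d3, at 1.29 to 1.90 times. The other 6 pairs of neighbours changed places between control libraries and did not differ beyond their spread. With control replicate 3 left out the order was the same, Zbtb16 stood at 4.17 ± 1.39 and Fkbp5 at 0.913 ± 0.281 CPM per kilobase (SD, n = 4 each), and in each of the 4 libraries Errfi1 was above Zbtb16 and Nr3c2 above Fkbp5.

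**Figure D1:**
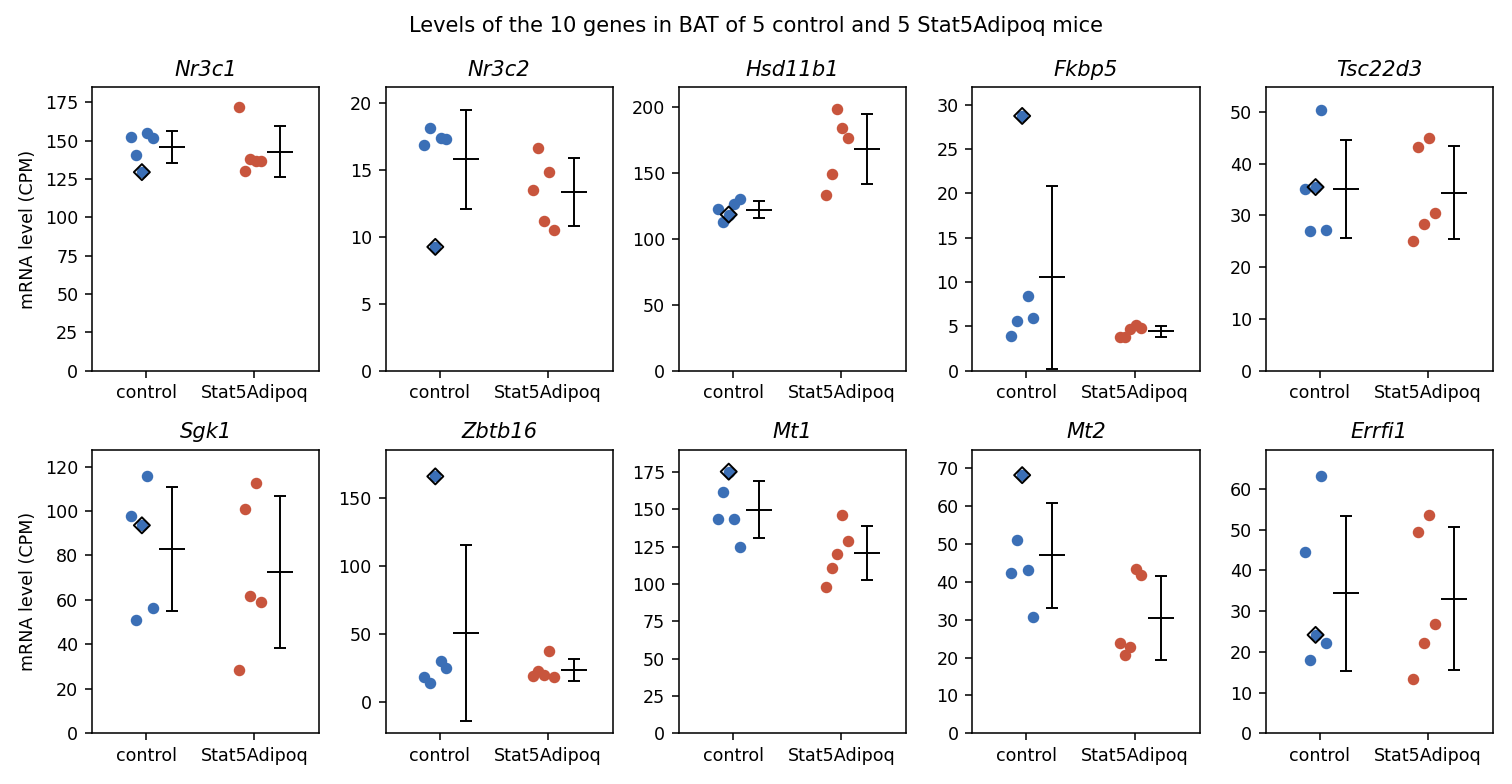
mRNA level in CPM (vertical axes, 1 panel per gene) in BAT of 5 control and 5 *Stat5* Adipoq mice, with 1 point per library and a bar for the mean ± SD; open diamonds mark control replicate 3. For Hsd11b1 all *Stat5* Adipoq libraries, at 133 to 199 CPM, lie above all controls, at 113 to 130.0 CPM, while the genotypes overlap for the other 9 genes.

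Nr3c1 (Entrez gene 14815), which encodes the glucocorticoid receptor, is found on chromosome 18 (GRCm38, 39410545 to 39519421). Its level was 152, 140.4, 129, 155 and 152 CPM in control replicates 1 to 5 and 172, 130.1, 138, 136 and 137 CPM in *Stat5* Adipoq replicates 1 to 5. The genotypes overlapped throughout, and *Stat5* Adipoq replicate 1 held both the highest value of the 10 and the only one of its genotype above all controls. The means were 146 ± 10.6 and 143 ± 16.7 CPM (SD, n = 5 each). The log2 fold change was -0.03, with 95% confidence limits of -0.21 and 0.15 (edgeR, adjusted p = 0.914; exact permutation test, p = 0.714). A difference inside these limits cannot be told from none. In whole tissue, fewer cells of a type and less RNA per cell cannot be told apart. Among 9843 genes with a mean of at least 5 CPM, the spread of Nr3c1 between mice of a genotype ranked at percentile 46.0, with an SD of 0.14 on the log2 scale against a median of 0.14.

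Nr3c2 (Entrez gene 110784), on chromosome 8 from 76898083 to 77245012, encodes the mineralocorticoid receptor, which also binds glucocorticoids. Its level was 16.9, 18.2, 9.26, 17.4 and 17.4 CPM in control replicates 1 to 5 and 13.5, 16.7, 11.2, 14.9 and 10.5 CPM in *Stat5* Adipoq replicates 1 to 5. Control replicate 3 was the lowest of all 10 libraries, and the other 4 controls lay above all 5 *Stat5* Adipoq libraries. With all libraries the log2 fold change was -0.25, with confidence limits of -0.64 and 0.14 (edgeR, adjusted p = 0.568; exact permutation test, p = 0.302). Without control replicate 3 the controls averaged 17.4 ± 0.536 CPM (SD, n = 4) and the log2 fold change was -0.38 (edgeR, adjusted p = 0.151; exact permutation test, p = 0.016, the smallest it can give for 4 against 5 libraries). Over all alternatives the adjusted p ran from 0.151 to 0.776, so Nr3c2 did not pass the threshold in any of them.

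Proteins that act with the receptors were examined as lists of genes. Of the 15 chaperone and cochaperone genes, edgeR, DESeq2 and limma-voom each called 0 at an adjusted p threshold of 0.05, and 0 had an unadjusted p below 0.05. Their median log2 fold change was 0.15 (0.09 to 0.21 over all alternatives), with 13 of 15 above 0, against a median of -0.0028 over all 13568 genes, of which 6679 were above 0. Of 15 coregulator genes, 1 was called lower and 0 higher, where edgeR called 178 of all genes lower (1.31%) and 190 higher (1.4%), together 368 (2.71%). It was Nrip1, which encodes a corepressor of nuclear receptors, with means of 19.9 ± 3.34 and 11.5 ± 3.36 CPM in control and *Stat5* Adipoq BAT (SD, n = 5 each; log2 fold change -0.78, edgeR, adjusted p = 0.0390). In the controls Nrip1 measured 24.3, 15.2, 19.0, 21.2 and 19.6 CPM and in *Stat5* Adipoq BAT 17.1, 12.0, 9.97, 10.2 and 8.39 CPM, so that *Stat5* Adipoq replicate 1 overlapped the controls. The call of Nrip1 held in all 7 other settings and was lost when 1 library was left out in 7 of 10 cases, the exceptions being *Stat5* Adipoq replicate 1 and control replicates 2 and 3, and the adjusted p ran from 0.00128 to 0.111. The coregulators as a list had a median log2 fold change of -0.06 (-0.09 to -0.03 over all alternatives).

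Of 11 listed mineralocorticoid receptor targets, which include subunits of the epithelial sodium channel, 10 were tested, and edgeR called 1 higher and 1 lower, where it called 1.4% of all genes higher and 1.31% lower. Like all lists here, this one was chosen with earlier results of these data known, so its count beside these shares is not a test. Ptgds, for a prostaglandin synthase, rose from 4.10 ± 0.677 CPM to 36.6 ± 11.1 CPM, and Orm1, for an acute phase protein, fell from 86.1 ± 13.4 CPM to 53.6 ± 5.79 CPM (SD, n = 5 each). Both calls held in all 7 other settings and all 10 fits with 1 library left out. The libraries of Scnn1a, for a subunit of that channel, did not overlap between the genotypes either, as was so for 596 of all 13568 tested genes (4.39%), but edgeR did not call it (log2 fold change 1.01, adjusted p = 0.0624), while DESeq2 and limma-voom did (adjusted p = 0.0471 and 0.0495). The median log2 fold change of the list was 0.12 (0.05 to 0.19 over all alternatives).

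Hsd11b1 (Entrez gene 15483), on chromosome 1 from 193221640 to 193264045, encodes the enzyme that turns inactive 11-keto steroids such as cortisone and 11-dehydrocorticosterone into active glucocorticoids inside the cell. Its level was 123, 113, 118, 126 and 130.0 CPM in control replicates 1 to 5 and 133, 149, 199, 184 and 177 CPM in *Stat5* Adipoq replicates 1 to 5. All 5 *Stat5* Adipoq libraries lay above all 5 controls, with *Stat5* Adipoq replicates 1 and 2 nearest to them. The means were 122 ± 6.63 and 168 ± 26.5 CPM (SD, n = 5 each), in a ratio of 1.38, so the gene rose by more than the spread within either genotype. The log2 fold change was 0.46 (SE 0.10, 95% confidence limits 0.25 and 0.68; edgeR, adjusted p = 0.0275; exact permutation test, p = 0.0079, the smallest it can give for 5 against 5 libraries). Hsd11b1 was the only one of the 10 genes to pass the adjusted threshold, where 2.71% of all tested genes did, and the only one whose libraries did not overlap, where 4.39% did not.

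The rise of Hsd11b1 kept its direction in all alternatives, with log2 fold changes between 0.40 and 0.54, and it was called in all 7 other settings. It was no longer called in 6 of 10 fits with 1 library left out: the adjusted p was 0.0614 without control replicate 1, 0.0745 without control replicate 2, 0.0577 without control replicate 4, and 0.0720, 0.0801 and 0.0776 without *Stat5* Adipoq replicate 3, 4 or 5. Without control replicate 3 the log2 fold change was 0.45 and the adjusted p 0.0385, and over all alternatives the adjusted p ran from 0.000675 to 0.0801. Markers of cell types were read beside it. The 5 endothelial markers, with Kdr the most abundant, summed to 722, 729, 656, 684 and 761 CPM in the controls and 682, 723, 784, 799 and 844 CPM in *Stat5* Adipoq BAT, with all 5 fold changes above 0, 2 of them at an unadjusted p below 0.05, and 0 called by edgeR, DESeq2 or limma-voom. The 5 fibroblast markers, with Col3a1 the most abundant, summed to 810.4, 1196, 1126, 1556 and 1115 CPM in the controls and 1506, 897, 770.0, 809 and 1056 CPM in *Stat5* Adipoq BAT. None of these markers was at 0 throughout, and their part in the result for Hsd11b1 was not tested.

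Other genes that set the supply of active steroid were few in BAT. Of 11 listed, 6 were tested, while Hsd11b2, which encodes the enzyme for the opposite reaction, Srd5a2, Akr1d1, Serpina6 and Cyp11a1 had too few counts. The most abundant was H6pd, which supplies the cofactor for the enzyme made from Hsd11b1, with means of 332 ± 18.8 and 353 ± 26.9 CPM in control and *Stat5* Adipoq BAT (SD, n = 5 each; log2 fold change 0.09, edgeR, adjusted p = 0.567). EdgeR, DESeq2 and limma-voom each called 0 of the 6, 0 had an unadjusted p below 0.05, and the median log2 fold change was 0.08 (0.0072 to 0.12 over all alternatives).

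Of the 7 target genes, edgeR and limma-voom called 0, DESeq2 called 0 of the 6 to which it gave an adjusted p (it gave none to Zbtb16), and 3 had an unadjusted p below 0.05, compared with 2064 of all 13568 genes. All 7 log2 fold changes were below 0, with a median of -0.31 (-0.40 to -0.19 over all alternatives, the latter without control replicate 3, where Zbtb16 was above 0), but the sign of 4 of them, Tsc22d3, Sgk1, Zbtb16 and Errfi1, turned in at least 1 fit that left out a library. The 3 with an unadjusted p below 0.05 were Fkbp5, Mt1 and Mt2, which kept their sign in all alternatives.

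**Figure D2:**
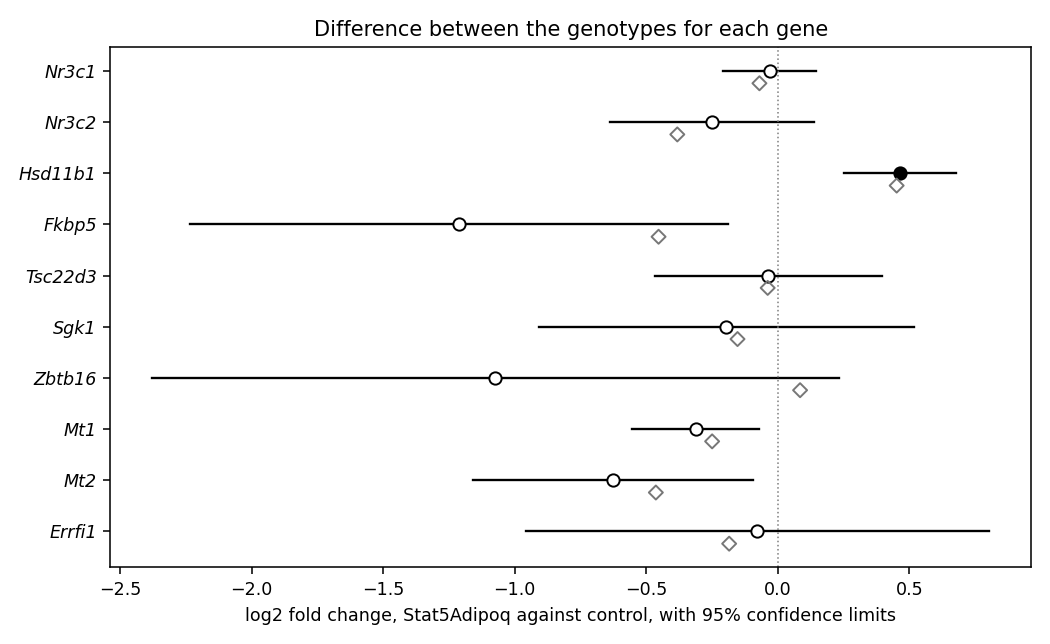
Log2 fold change of each gene in *Stat5* Adipoq against control BAT (horizontal axis) with 95% confidence limits as lines, n = 5 libraries per genotype; the filled circle passed the adjusted threshold, open circles did not, and grey diamonds give the value without control replicate 3. The limits of Hsd11b1 run from 0.25 to 0.68, and Zbtb16 moves from -1.07 to 0.08 and Fkbp5 from -1.21 to -0.45 when control replicate 3 is left out.

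Fkbp5 (Entrez gene 14229), on chromosome 17 from 28398753 to 28486149, encodes a cochaperone that lowers the affinity of the receptor for hormone and is itself induced by it. Its level was 3.93, 5.63, 28.7, 8.39 and 5.94 CPM in control replicates 1 to 5 and 3.77, 3.85, 4.71, 5.18 and 4.79 CPM in *Stat5* Adipoq replicates 1 to 5. Control replicate 3 was far above the other 9 libraries, which overlapped between the genotypes. With all libraries the log2 fold change was -1.21, with confidence limits of -2.23 and -0.19 (edgeR, adjusted p = 0.237; exact permutation test, p = 0.0714). Without control replicate 3 the controls averaged 5.97 ± 1.84 CPM (SD, n = 4) against 4.46 ± 0.620 CPM in the 5 *Stat5* Adipoq libraries, and the log2 fold change was -0.45 (edgeR, adjusted p = 0.305; exact permutation test, p = 0.143).

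Zbtb16 (Entrez gene 235320), on chromosome 9 from 48651797 to 48836225, encodes a zinc finger transcription factor that glucocorticoids induce in many cell types. Its level was 18.7, 13.8, 165, 30.5 and 25.1 CPM in control replicates 1 to 5 and 18.9, 23.3, 20.2, 37.9 and 18.8 CPM in *Stat5* Adipoq replicates 1 to 5. Control replicate 3 was again far above all others, and *Stat5* Adipoq replicate 4 was the next highest. The control mean was 50.7 ± 64.5 CPM (SD, n = 5), or 22.0 ± 7.32 CPM (SD, n = 4) without that library. The log2 fold change was -1.07 with all libraries (confidence limits -2.38 and 0.23; edgeR, adjusted p = 0.440; exact permutation test, p = 0.667) and 0.08 without control replicate 3 (edgeR, adjusted p = 0.916; exact permutation test, p = 0.683). Fkbp5 and Zbtb16 both peaked in the library with 3634 CPM of summed muscle markers and 88.9 CPM of summed liver genes, and the part of these tissues in both genes was not tested. Across the 10 libraries, with genotype means subtracted, Fkbp5 and Zbtb16 had a Pearson r of 0.928 and a Spearman rho of 0.818 (exact permutation within genotypes, p = 0.0174 and 0.0173, adjusted over 45 pairs 0.156 for both). Without the 2 libraries farthest from the median, control replicates 3 and 1, r was 0.644 (exact permutation, p = 0.167), and without control replicate 3 alone it was 0.557 (exact permutation, p = 0.173, adjusted 0.700), so the size of r rests on that library.

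Mt1 and Mt2 encode metallothioneins, small proteins that bind zinc and copper, and both respond to metals through the factor MTF1 as well as to glucocorticoids. They are neighbours on chromosome 8, Mt2 (Entrez gene 17750) from 94172618 to 94173567 and Mt1 (Entrez gene 17748) from 94178883 to 94180327. Mt1 measured 143, 162, 175, 143 and 125 CPM in control replicates 1 to 5 and 98.2, 110.4, 120.2, 146 and 128 CPM in *Stat5* Adipoq replicates 1 to 5. Mt2 measured 42.3, 51.0, 68.2, 43.0 and 30.7 CPM in the controls and 23.8, 20.6, 22.9, 43.4 and 41.8 CPM in *Stat5* Adipoq BAT. For both genes *Stat5* Adipoq replicates 1 to 3 lay below all controls, while *Stat5* Adipoq replicates 4 and 5 lay among them, and control replicate 3 was the highest library. The log2 fold change of Mt1 was -0.31, with confidence limits of -0.55 and -0.07 (edgeR, unadjusted p = 0.0156, adjusted p = 0.191; exact permutation test, p = 0.0556). That of Mt2 was -0.63, with confidence limits of -1.16 and -0.09 (edgeR, unadjusted p = 0.0249, adjusted p = 0.242; exact permutation test, p = 0.0635). Without control replicate 3 these values were -0.25 for Mt1 (adjusted p = 0.280; exact permutation test, p = 0.111) and -0.46 for Mt2 (adjusted p = 0.358; exact permutation test, p = 0.127). Of the exon bases of Mt2, 73.5% lie under exons of the other strand, and since the strand setting of the counting is not stated, its count is less certain than that of Mt1.

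Mt1 and Mt2 varied together between mice of a genotype, with a Pearson r of 0.879 and a Spearman rho of 0.842 over 10 libraries after subtraction of genotype means (exact permutation within genotypes, p = 0.00229 and 0.00576, adjusted over 45 pairs 0.0258 and 0.0648). Without *Stat5* Adipoq replicates 4 and 1, the 2 farthest from the median of Mt1, r was 0.903 (exact permutation, p = 0.00139, adjusted 0.0625), and without control replicate 3 it was 0.844 (exact permutation, p = 0.00937, adjusted 0.105). The size of r was kept in these smaller sets, while its adjusted p no longer passed the threshold; the first p is the lowest that 720 permutations allow.

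Promoter sequence was read because these pairs of genes vary together and the receptor binds DNA. RefSeq windows of GRCm38.p6 were limited to the 250 bases before each annotated start. The search covered 16 windows of 8 of the 10 genes, among 32851 windows of 27025 genes. No window of Nr3c1 or Zbtb16 was among the 16, so the motif counts do not cover these genes. On both strands, 4 motifs were searched: the glucocorticoid response element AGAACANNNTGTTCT, the receptor hexamer TGTTCT contained in it, the STAT5 motif TTCNNNGAA, and the metal response element core, TGCACNC or TGCGCNC. The response element occurred in 3 of all windows (0.00913%), the hexamer in 16.1%, the STAT5 motif in 7.02% and the metal core in 21.4%. The metal core was found in 4 of the 16 windows, 1 each of Mt1, Mt2, Nr3c2 and Hsd11b1, and the Mt2 window held it 3 times. The window of Mt2, chr8:94172368-94172617 on the plus strand, is shown 5′ to 3′ because it held more metal cores than that of any other of the 8 genes, with matches to any of the 4 motifs in capitals. That of Mt1, chr8:94178839-94179088, held the core once, 23 bases before the start, and lies in part within the annotated gene. A match is a description, not a site or a cause.
Mt2: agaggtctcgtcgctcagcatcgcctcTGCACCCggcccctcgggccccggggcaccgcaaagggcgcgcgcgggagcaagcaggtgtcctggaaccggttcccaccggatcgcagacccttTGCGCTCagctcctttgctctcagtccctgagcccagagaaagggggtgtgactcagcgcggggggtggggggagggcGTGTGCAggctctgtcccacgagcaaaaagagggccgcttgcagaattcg
The window of Mt2 overlaps an exon annotated on the opposite strand.

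Metal handling was also read from 22 listed genes for metallothioneins, zinc transporters and MTF1, of which 17 were tested. EdgeR called 1 lower and 0 higher, where it called 1.31% of all genes lower and 1.4% higher. The median log2 fold change was -0.01 (-0.04 to 0.02 over all alternatives). The called gene was Slc39a1, which encodes a zinc importer, with means of 45.6 ± 2.64 and 36.6 ± 2.87 CPM in control and *Stat5* Adipoq BAT (SD, n = 5 each) and no overlap between the genotypes (log2 fold change -0.31, edgeR, adjusted p = 0.0275). Of all tested genes, 4.39% did not overlap. The call of Slc39a1 held in all 7 other settings and was lost in 7 of the 10 fits with 1 library left out, kept only without *Stat5* Adipoq replicate 1 or 2 or control replicate 3, with adjusted p from 0.00208 to 0.0774. The brain and epithelial metallothionein genes Mt3 and Mt4 had too few counts to be tested.

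Sgk1 (Entrez gene 20393), on chromosome 10 from 21882184 to 21999903, encodes a kinase that both steroid receptors induce and that regulates ion channels and transporters. Its level was 97.7, 51.1, 93.6, 116 and 56.3 CPM in control replicates 1 to 5 and 28.4, 101, 61.9, 113 and 59.1 CPM in *Stat5* Adipoq replicates 1 to 5. Control replicate 4 and *Stat5* Adipoq replicate 4 were highest, *Stat5* Adipoq replicate 1 was lowest, and the genotypes overlapped. Between the genotypes the log2 fold change of Sgk1 was -0.20, with confidence limits of -0.91 and 0.52 (edgeR, adjusted p = 0.847; exact permutation test, p = 0.635).

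Errfi1 (Entrez gene 74155), on chromosome 4 from 150853796 to 150868889, encodes an inhibitor of the epidermal growth factor receptor. It measured 44.5, 18.1, 24.2, 63.2 and 22.1 CPM in control replicates 1 to 5 and 13.3, 49.6, 22.2, 53.5 and 26.8 CPM in *Stat5* Adipoq replicates 1 to 5. As for Sgk1, replicate 4 was the highest library of either genotype and *Stat5* Adipoq replicate 1 the lowest of all. The log2 fold change was -0.08 with confidence limits of -0.96 and 0.80 (edgeR, adjusted p = 0.963; exact permutation test, p = 0.881). At this spread a difference between these limits cannot be told from none.

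Tsc22d3 (Entrez gene 14605), on chromosome X from 140539528 to 140600522, encodes GILZ, a leucine zipper protein that mediates anti-inflammatory actions of glucocorticoids. Its level was 35.1, 27.0, 35.5, 50.4 and 27.2 CPM in control replicates 1 to 5 and 25.2, 43.1, 28.3, 44.9 and 30.5 CPM in *Stat5* Adipoq replicates 1 to 5. Control replicate 4, *Stat5* Adipoq replicate 4 and *Stat5* Adipoq replicate 2 were the highest 3, and the means of 35.1 ± 9.50 CPM and 34.4 ± 9.03 CPM (SD, n = 5 each) lay close together. For Tsc22d3 the log2 fold change was -0.04, with confidence limits of -0.47 and 0.40 (edgeR, adjusted p = 0.965; exact permutation test, p = 0.929).

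Sgk1, Errfi1 and Tsc22d3 varied together from mouse to mouse. After genotype means were subtracted, Sgk1 and Errfi1 had a Pearson r of 0.923 and a Spearman rho of 0.927 over the 10 libraries (exact permutation within genotypes, p = 0.000139 and 0.000556, adjusted over 45 pairs 0.00625 and 0.0115). For Tsc22d3 and Errfi1 r was 0.941 and rho 0.964 (exact permutation, p = 0.000347 and 0.000417, adjusted 0.00625 and 0.0115). For Tsc22d3 and Sgk1 r was 0.910 and rho 0.939 (exact permutation, p = 0.000417 and 0.000764, adjusted 0.00625 and 0.0115). These 3 pairs and Mt1 with Mt2 were the pairs with an adjusted p below 0.05 by Pearson's r, and the 3 were those by Spearman's rho. With the 2 libraries farthest from the median of the first gene left out, r was 0.874 for Sgk1 and Errfi1 (exact permutation, p = 0.0278, adjusted 0.312), 0.893 for Tsc22d3 and Errfi1 (p = 0.00521, adjusted 0.117) and 0.924 for Tsc22d3 and Sgk1 (p = 0.0243, adjusted 0.312), and 0 of the 45 pairs passed. The libraries left out were *Stat5* Adipoq replicate 1 and control replicate 2 for the Sgk1 pair and replicate 4 of both genotypes for the pairs of Tsc22d3. The size of r was kept, but the adjusted p no longer passed the threshold. The unadjusted p of the 3 pairs lay above 0.00174, the lowest that the 576 remaining permutations allow. A single pair at that lowest p would have an adjusted p of 0.0781 among 45 pairs. Without control replicate 3 the values of r were 0.973, 0.967 and 0.912, each with an adjusted p of 0.0156 (exact permutation).

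**Figure D3:**
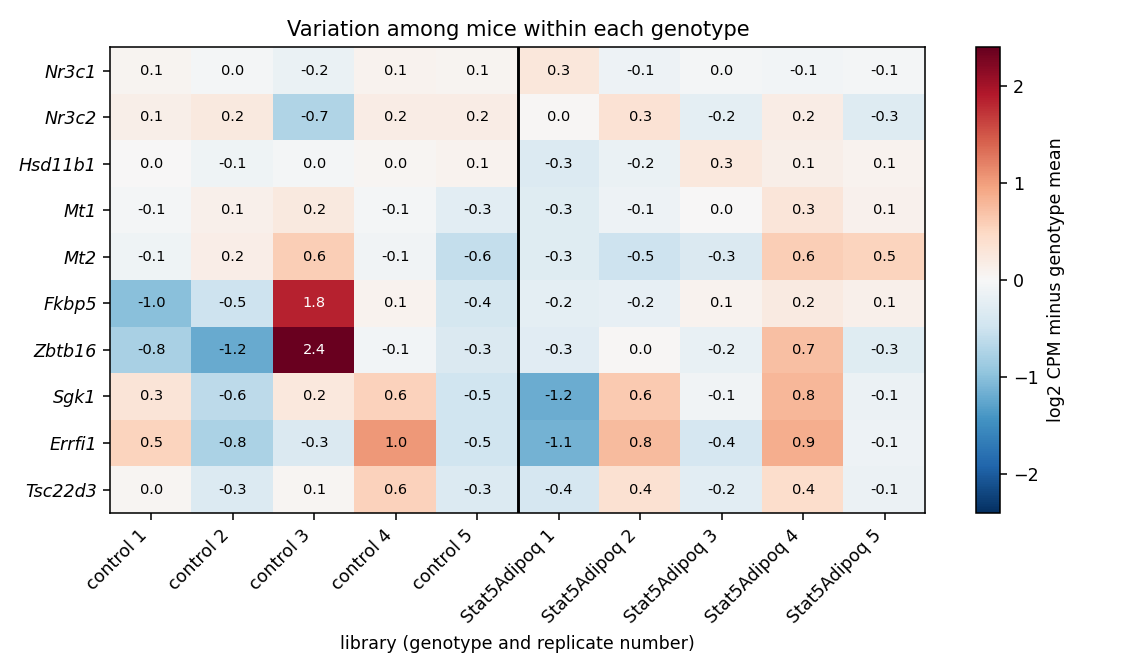
Log2 CPM minus the genotype mean (colour and printed value) for the 10 genes (vertical axis) in each library (horizontal axis), with a line between the genotypes. Sgk1, Errfi1 and Tsc22d3 are high together in replicate 4 of both genotypes and low together in *Stat5* Adipoq replicate 1, while Fkbp5 and Zbtb16 stand out in control replicate 3 with values of 1.8 and 2.4.

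The spread of the target genes between mice was wide. On the log2 scale, the SD within genotypes was 1.03 for Zbtb16, 0.80 for Errfi1, 0.79 for Fkbp5 and 0.67 for Sgk1, at percentiles 99.4, 99.1, 99.1 and 98.8 of 9843 genes, whose median SD was 0.14. Mt2, Tsc22d3 and Nr3c2 ranked at percentiles 97.2, 94.7 and 93.7, and Mt1 and Hsd11b1 at 74.0 and 65.1. Without control replicate 3 the SD was 0.46 for Zbtb16 and 0.33 for Fkbp5, and the percentiles were 97.4 for Zbtb16, 94.1 for Fkbp5 and 80.3 for Nr3c2, and 99.3 for Errfi1, 99.0 for Sgk1 and 96.4 for Tsc22d3.

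A list of 11 immediate-early and stress genes was read beside the Sgk1, Errfi1 and Tsc22d3 values. Its summed level was 872, 526, 109, 589.8 and 327 CPM in control replicates 1 to 5 and 77.5, 566, 437, 647 and 222 CPM in *Stat5* Adipoq replicates 1 to 5, highest in control replicate 1 and lowest in *Stat5* Adipoq replicate 1. Nr4a1, its most abundant gene, measured 658, 229, 19.1, 452 and 166 CPM in the controls and 9.47, 364, 165, 436 and 91.5 CPM in *Stat5* Adipoq BAT. Control replicate 3, with little Nr4a1, had 93.6 CPM of Sgk1 and 24.2 CPM of Errfi1. EdgeR, DESeq2 and limma-voom each called 0 of the 11, 0 had an unadjusted p below 0.05, and the median log2 fold change was -0.08 (-0.19 without control replicate 3 to 0.26 without control replicate 1). Of the libraries with the highest Errfi1, control replicate 4 and *Stat5* Adipoq replicate 2 were also the deepest of their genotypes, with 19514904 and 15686868 counts, whereas *Stat5* Adipoq replicate 4 was the shallowest of its genotype with 9401827. The part of depth and of the immediate-early genes in the shared variation was not tested.

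The one match to the glucocorticoid response element among the 16 windows lay before an annotated start of Sgk1, at chr10:21993640-21993889 on the plus strand of GRCm38.p6 (RefSeq), and begins 189 bases before that start. This window lies in an intron of longer Sgk1 transcripts. It is shown because it holds 1 of only 3 such matches among 32851 windows; capitals mark matches to any of the 4 motifs. The element contains the hexamer on both strands, so of the 3 hexamer matches in the window only 1 lies outside it.
Sgk1: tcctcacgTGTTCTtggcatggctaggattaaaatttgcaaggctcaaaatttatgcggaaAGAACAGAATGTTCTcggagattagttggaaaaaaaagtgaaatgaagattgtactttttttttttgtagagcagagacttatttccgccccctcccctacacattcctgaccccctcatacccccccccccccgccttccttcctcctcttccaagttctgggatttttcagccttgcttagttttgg
The hexamer occurred in 4 of the 16 windows, 3 of Sgk1 and 1 of Tsc22d3, and the STAT5 motif in 2, 1 each of Tsc22d3 (chrX:140548572-140548821) and Sgk1 (chr10:21881934-21882183). The windows of Errfi1 and Fkbp5 held none of the 4 motifs, and that of Hsd11b1 held only the metal core, which says nothing beyond these letters in these windows.

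Genes around Sgk1 and Errfi1 in their pathways were counted as well. Of 10 genes for SGK relatives, activators and substrates, edgeR, DESeq2 and limma-voom each called 0, 2 had an unadjusted p below 0.05 (Mlst8 and Nedd4l), and the median log2 fold change was 0.01 (-0.02 to 0.04 over all alternatives). Of 14 genes for the EGF receptor family, its ligands and a regulator, 11 were tested, with a median log2 fold change of -0.13 (-0.18 to -0.03 over all alternatives). EdgeR called 1 of the 11 higher and 0 lower, where it called 1.4% of all genes higher and 1.31% lower. The called gene was Nrg2, for a neuregulin, at 1.44 ± 0.632 CPM against 0.410 ± 0.206 CPM in the controls (SD, n = 5 each; edgeR, adjusted p = 0.0466). Nrg2 averaged 11.0 counts per library, and its call was lost in 5 of 7 other settings and in 9 of 10 fits with 1 library left out, all but that without *Stat5* Adipoq replicate 1, with adjusted p from 0.0101 to 0.128.

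For each of the 10 genes, the genes most like it were sought by Pearson r of log2 CPM over the 10 libraries, after subtraction of genotype means, among 9843 genes. The nearest to Sgk1 were Spry4 (r = 0.972), Leng9 (0.970) and Dusp6 (0.961). Those nearest to Errfi1 were Kdm6b (0.970), Plk3 (0.956) and Pde4d (0.955), and those nearest to Tsc22d3 were Leng9 (0.954), Sdc4 (0.944) and Errfi1 itself (0.941). Fkbp5 was most like Aftph (0.980), Vdac1 (0.967) and Tacc2 (0.962), and Zbtb16 most like Vdac1 (0.962), Rsad1 (0.947) and Jph1 (0.935). Nr3c1 was nearest to Ccnd2 (0.933), Nr3c2 to Slc10a7 (0.971), Hsd11b1 to Spns2 (0.931), Mt1 to Arpc4 (0.939) and Mt2 to Tmco4 (0.979). These are the highest of many values over few libraries and carry no test. They were not recomputed without control replicate 3. In that library log2 CPM minus the genotype mean was 1.8 for Fkbp5, 2.4 for Zbtb16 and -0.73 for Nr3c2, so the r of these 3 genes may rest on it.

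Other genes known to be induced by glucocorticoids were taken from a list of 35, of which 32 were tested. EdgeR called 2 lower and 0 higher (1.31% and 1.4% of all genes), 9 had an unadjusted p below 0.05 (2064 of all 13568 genes), 9 had a fold change above 0 (6679 of all), and the median log2 fold change was -0.11 (-0.18 to -0.05 over all alternatives). The 2 were Pik3r1 (log2 fold change -1.09) and Pck1, which encodes an enzyme of glyceroneogenesis. The call of Pik3r1 held in all 7 other settings and all 10 fits with 1 library left out, with adjusted p from 7.11e-07 to 0.0389. Pck1 measured 7243, 5944, 7175, 8206 and 5409 CPM in control replicates 1 to 5 and 4972, 4917, 4351, 5328 and 5126 CPM in *Stat5* Adipoq replicates 1 to 5. The genotypes did not overlap, and the mean fell from 6795 ± 1116 CPM to 4939 ± 365 CPM (SD, n = 5 each; log2 fold change -0.46, SE 0.10, edgeR, adjusted p = 0.0371). The call of Pck1 was lost with a replicate block and in 8 of the 10 fits with 1 library left out, kept only without control replicate 2 or 5, with adjusted p from 0.00125 to 0.108. In the fit without control replicate 1, edgeR called Bcl6, for a transcriptional repressor, higher (log2 fold change 1.08, adjusted p = 0.00576), against a log2 fold change of 0.65 with all libraries (adjusted p = 0.310). Trim63, for a ubiquitin ligase of muscle, measured 11.3 CPM in control replicate 3 and at most 1.19 CPM in the other libraries.

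Among 14 glucocorticoid targets in the lipid metabolism of fat, 13 were tested, of which edgeR and limma-voom called 0 and DESeq2 called 2 lower, Lpl and Pnpla2, while 4 had an unadjusted p below 0.05. Pnpla2, for the first lipase of lipolysis, did not overlap between the genotypes, with 3678 to 4063 CPM in the controls and 2948 to 3493 CPM in *Stat5* Adipoq BAT (log2 fold change -0.20, edgeR, adjusted p = 0.0982). Lpl was called lower by edgeR without control replicate 5 (adjusted p = 0.0204). The median of the list was -0.0011 (-0.03 to 0.02 over all alternatives). Of 16 genes known to be repressed by the receptor 9 were tested. EdgeR called 1 of them higher and 0 lower, where it called 1.4% of all genes higher and 1.31% lower. Their median was 0.13 (-0.0061 to 0.26 over all alternatives, 0.01 without control replicate 3). The called gene was Sele, for an adhesion molecule of endothelium, which rose from 0.696 ± 0.236 CPM to 2.19 ± 0.806 CPM (SD, n = 5 each; edgeR, adjusted p = 0.0208) with 17.6 counts per library on average. Its call was lost with a replicate block and in 3 of 10 fits with 1 library left out, those without *Stat5* Adipoq replicate 3 or control replicate 1 or 2, and the adjusted p ran from 0.00136 to 0.0659. Of 16 clock genes, several of which glucocorticoids can shift, edgeR, DESeq2 and limma-voom each called 0, 1 had an unadjusted p below 0.05 (Cry1, log2 fold change 0.41, adjusted p = 0.140), and the median was 0.09 (-0.03 to 0.13 over all alternatives). With a replicate block edgeR called 1 of the 16, Nfil3, higher (log2 fold change 0.51, adjusted p = 0.0362).

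The remaining cell type markers gave 1 call, Retn among 3 white adipocyte markers (log2 fold change -1.53, edgeR, adjusted p = 0.0232), which was lost without *Stat5* Adipoq replicate 2, 3 or 4 or control replicate 1, with adjusted p from 0.00158 to 0.0707. Of all genes, edgeR called 1.31% lower. The median log2 fold change of the 3 white adipocyte markers was -0.17 (-0.36 to 0.11 over all alternatives), with 1 of 3 above 0. EdgeR and limma-voom called 0 of the 9 skeletal muscle markers, DESeq2 called 4 lower and gave no adjusted p to the other 5, and all 9 had an unadjusted p below 0.05. For the markers of brown adipocytes, all adipocytes, macrophages, T cells, B cells, neutrophils, fibroblasts, Schwann cells and liver, edgeR, DESeq2 and limma-voom each called 0, but DESeq2 gave an adjusted p to 0 of the 6 liver genes and to 1 of the 3 T cell markers. The numbers of these with an unadjusted p below 0.05 were 1 of 5, 1 of 5, 0 of 7, 0 of 3, 1 of 3, 0 of 3, 0 of 5, 3 of 4 and 2 of 6, in that order, and the medians were -0.03, -0.05, -0.09, -0.82, 0.45, -0.26, -0.20, -0.80 and -2.95. Over all alternatives (for T cells, the 16 of 17 that kept any of these markers) these medians ran from -0.22 to 0.41, -0.09 to -0.0026, -0.16 to 0.0081, -1.36 to -0.37, 0.13 to 0.63, -0.42 to 1.14, -0.35 to -0.09, -0.97 to -0.42 and -3.40 to 1.12. The endothelial and skeletal muscle medians were 0.14 and -5.58, from 0.11 to 0.17 and from -6.21 to -2.44 over all alternatives. The median without control replicate 3, an alternative chosen after the data were seen, was -2.44 for skeletal muscle, 1.12 for liver and 0.41 for brown adipocytes, with 0 called by edgeR in each.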

How the data were processed

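RNA-Seq of BAT from 5 control and 5 *Stat5* Adipoq mice was used. Reads of 50 bases had been mapped to GRCm38 by the authors (STAR 2.5.0b), who assigned them to exons with featureCounts 1.5.0-p1 and deposited raw counts for each Entrez gene. The deposited comparison table served only to match symbols; its fold changes and p-values were not used. Libraries were grouped by their labels. Genes were kept where counts divided by DESeq2 size factors summed to above 45. Genotypes were compared with edgeR 4.0.16 (TMM, quasi-likelihood F test, Benjamini-Hochberg over 13568 genes, threshold 0.05). On simulated data edgeR recovered 68% of the smaller and 99% of the larger changes, with 2.34% false calls. The simulation gave each gene the average spread at its level. It therefore does not speak for genes of wider spread, such as Sgk1, Errfi1, Zbtb16 and Fkbp5. Exact two-sided permutation tests and correlations used log2 CPM with a prior count of 0.5. Correlations permuted libraries within genotypes.

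The 10 genes and the lists were chosen with earlier results of these data known. Genes chosen for naming were the 10 genes, Stat5a and Stat5b, every called gene of a list and the 2 others with its lowest p. For each of the 10 the 3 most similar genes were also chosen. Not all of these genes are printed here. The most abundant gene of a list and others were named after their values were seen. Alternatives were DESeq2 1.42.0, limma-voom (limma 3.58.1), DESeq2 size factors, library size, other filters on low counts, a replicate block, levels without exon length and leaving out each library. Levels and correlations without control replicate 3, and permutation tests and list medians under any alternative, were added after the data were seen. Sequences are from RefSeq.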

Additional observations from a re-analysis of the deposited data

Results flagged for a closer look

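In 10 of 32 groups of 5 libraries examined, 1 library lay far from the others of its genotype relative to the range of the group. For normally distributed values chance gives about 1 in 20 such groups, here 1.6. The groups share libraries and their values need not be normal, so this number is only a rough guide. Of the 10, 5 came from control replicate 3. There Nr3c2 measured 9.26 CPM against 16.9 to 18.2 CPM in the other controls, Fkbp5 28.7 CPM against 3.93 to 8.39 CPM, and Zbtb16 165 CPM against 13.8 to 30.5 CPM. In the same library the skeletal muscle markers summed to 3634 CPM against 4.25 to 298 CPM, and the liver markers to 88.9 CPM against 1.82 to 2.49 CPM.

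The liver markers also summed to 6.22 CPM in *Stat5* Adipoq replicate 2 against 1.32 to 2.68 CPM in the others of its genotype. Zbtb16 measured 37.9 CPM in *Stat5* Adipoq replicate 4 against 18.8 to 23.3 CPM. In *Stat5* Adipoq replicate 1, Nr3c1 measured 172 CPM against 130.1 to 138 CPM and Stat5a 20.7 CPM against 15.8 to 16.6 CPM. Control replicate 4 held 19514904 counts on genes against 8488129 to 10936218 in the other controls. Why these libraries differ was not tested.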

How the results depend on the processing

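Of 170 recomputed fold changes of the 10 genes, 152 kept their direction and their side of the threshold, 1 kept its direction but had no adjusted p (Zbtb16 by DESeq2), 6 kept their direction but were no longer called (all of Hsd11b1), and 11 changed sign, in fits with 1 library left out. Over those fits the log2 fold change ran from -0.10 to 0.0036 for Nr3c1, -0.14 to 0.14 for Tsc22d3, -0.40 to 0.011 for Sgk1, -1.32 to 0.084 for Zbtb16 and -0.31 to 0.28 for Errfi1; none of these 5 genes was called in any setting that gave an adjusted p. The number of genes called was 368; it was 660 by DESeq2 and 185 to 442 with 1 library left out. Among the 10 genes it was 1 in all 7 other settings and 0 to 1 with 1 library left out. Of the other induced genes 2 were called, Pck1 and Pik3r1, both lower, and 1 to 2 with 1 library left out (without control replicate 1, Pik3r1 and Bcl6, the latter higher). Correlated pairs went from 4 to 0 without the 2 farthest libraries and to 3 without control replicate 3. Without the 2 farthest libraries, r of the 4 stayed at 0.874 to 0.924. Only Mt1 with Mt2 had the lowest p that its permutations allow, at which a single pair cannot pass once adjusted. The p of the other 3 pairs lay above their lowest possible value. Exact permutation tests at p below 0.05 numbered 1 with all libraries, 4 when scaled by library size only (Hsd11b1, Fkbp5, Mt1 and Mt2), and 1 to 3 with 1 library left out. Without exon length, 6 of the 10 ranks moved. The cause was not tested.

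With a replicate block, 273 genes were called, 1 of them among the 10 genes (Hsd11b1) and 1 among the other induced genes (Pik3r1). Replicate numbers do not appear to pair mice: deviations of the libraries with the same number correlated at -0.232, 0.205, -0.199, 0.0825 and -0.181 across genes, which are not independent replicates.

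Whole tissue does not show in which cells a gene differs, and mRNA does not show hormone level, receptor activity or enzyme activity. With 5 mice per genotype, wide spread between mice limits what can be detected for Sgk1, Errfi1, Zbtb16 and Fkbp5. The strand setting of the counting is not stated, which bears on Mt2.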

Other observations

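Some induced genes outside the 10 had a spread between mice like that of Sgk1 and Errfi1; they were picked after their values were seen, so no test was made. Irs2, for an insulin receptor substrate, measured 267, 29.1, 31.4, 174 and 58.3 CPM in control replicates 1 to 5 and 11.6, 142, 34.5, 109.8 and 27.3 CPM in *Stat5* Adipoq replicates 1 to 5. Per1, a clock gene with a glucocorticoid response, measured 98.1, 36.6, 56.8, 106 and 38.5 CPM in the controls and 20.0, 89.8, 19.9, 96.8 and 37.4 CPM in *Stat5* Adipoq BAT. Ddit4, for an inhibitor of mTOR signalling, measured 24.8, 11.5, 10.9, 46.4 and 12.7 CPM and 9.39, 30.3, 8.86, 38.8 and 17.7 CPM. Control replicates 1 and 4 and *Stat5* Adipoq replicates 2 and 4 were the highest libraries of their genotype for each of the 3 genes. Not all induced genes did so. Among *Stat5* Adipoq libraries Dusp1 was highest in replicate 3, at 156 CPM, and among controls Cdkn1a was highest in replicate 3, at 163 CPM.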
